A study of Mus musculus with 12 samples.

Results

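The type 2 lymphocyte genes described here are 10 genes that T helper 2 (Th2) cells and other type 2 lymphocytes are known to use: the transcription factor gene Gata3, the cytokine genes Il4, Il5 and Il13, the epithelial-cytokine receptor genes Il1rl1 and Il17rb, the chemokine receptor genes Ccr3, Ccr4 and Ccr8, and the growth factor gene Areg. They were taken by gene symbol from a count table of 19434 genes, and all 10 were among the 11062 genes that passed the filter on low counts. The study measured RNA of CD4+ T cells sorted from the lungs of male and female C57BL/6NJ mice, a common laboratory strain, after experimental pneumonia. Juvenile mice received 2800000 colony-forming units of E. coli by aspiration on day 15 of life, and their controls received PBS (phosphate-buffered saline) on the same day. Neonatal mice received the same E. coli dose or PBS on day 5. Cells were collected 48 hours later. The 4 groups are juvenile E. coli, juvenile PBS, neonatal E. coli and neonatal PBS, with 3 libraries each, and each library came from pooled cells of 2 juvenile or 3 neonatal mice. The labels name no transgene or deletion in any group and do not give the sex of each pool. The age groups differ both in the day of aspiration and in the number of mice per pool, which cannot be told apart.

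Type 2 immunity protects barrier tissues such as the lung and also drives allergic inflammation. In CD4+ T cells, interleukin-4 signals through the kinase-activated factor STAT6 to raise GATA3, and GATA3 opens the locus that holds the genes Il4, Il13 and Il5. Epithelial cells release interleukin-33 and interleukin-25, which act on type 2 lymphocytes through the receptors ST2 (gene Il1rl1) and IL-17RB, and several of these genes, Gata3, Il1rl1, Ccr4, Ccr8 and Areg among them, are also used by regulatory T cells of tissues, which are marked by Foxp3. RNA of a sorted bulk population cannot tell more cells of a type from more RNA per cell.

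Library totals ran between 6035445 and 8129983 counts. Levels below are CPM, a gene's counts per 1000000 counts of the tested genes after scaling, and 3 counts in a library equalled 0.374 to 0.494 CPM. The T cell genes Cd3e and Cd4 averaged 1622 ± 87.0 and 1082 ± 49.6 CPM in juvenile E. coli libraries, 1875 ± 177 and 1298 ± 50.9 CPM in juvenile PBS libraries, 1584 ± 83.8 and 1086 ± 16.1 CPM in neonatal E. coli libraries and 1609 ± 170.3 and 1133 ± 87.5 CPM in neonatal PBS libraries (SD, n = 3 each). Of 10 T cell genes, 6 fell in juveniles, among them Cd4 and Cd3d, where 9.42% of all tested genes fell. Cd3d averaged 145 ± 6.18 CPM in juvenile E. coli libraries and 245 ± 56.0 CPM in juvenile PBS libraries (-0.76 ± 0.12 log2 units, edgeR's adjusted p = 0.000380). The part of these genes' fall in the results was not tested. The PBS group of each age held 1 library that stood apart by Rag1 and Dntt, genes of developing lymphocytes. Rag1 was measured at 104, 145 and 102 CPM in juvenile E. coli libraries, 13.7, 169.9 and 29.5 CPM in juvenile PBS libraries, 0.255, 42.8 and 8.49 CPM in neonatal E. coli libraries and 344, 76.0 and 47.5 CPM in neonatal PBS libraries. All 3 juvenile E. coli libraries thus lay above 2 of the 3 juvenile PBS libraries and below juvenile PBS library 2, and Dntt showed the same order. Rag1 was called in neither comparison of E. coli with PBS (0.73 ± 0.88 in juveniles, adjusted p = 0.592; -3.16 ± 0.99 in neonates, adjusted p = 0.173). Of 10 tested immature T cell genes, 1 rose and 3 fell in juveniles, where 15.4% of all tested genes rose and 9.42% fell. The results that rest on these libraries are given with and without them where that changed a call or moved a value by more than 1.5 times.

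GATA factors bind DNA at the letters GATA in a short context, so the stretch around the transcription start was searched in all members. RefSeq gave 12 start windows for the 10 genes on GRCm38.p6, each running from 250 bases before to 50 bases after the start. The letters AGATAA, with T also allowed for the first A and G for the last, occurred on either strand in 9 of the 12 windows and in 7 of the 10 genes, while 29.8% of the 32851 promoters in the RefSeq table held one. The upstream start of Il1rl1 held 5 matches and that of Ccr3 held 2, whereas the windows of Areg, Ccr4 and Il17rb held 0. The STAT6 letters TTCNNNNGAA occurred in 1 member window, that of Il4, and in 6.95% of all promoters. The AP-1 letters TGANTCA occurred in 3 member windows and in 7.81% of all promoters, and the NFAT letters GGAAAA in 3 member windows and in 23.4% of all promoters. A match is a string of letters and no binding was measured. A window each of the 3 cytokine genes, which lie together on chromosome 11, and of Il1rl1 and Ccr3 is printed 5′ to 3′ on the gene's strand, to show a match in each cytokine gene and the windows with more than 1 match. Il4 and Il1rl1 have another window each, not printed, which holds 1 match. Capitals mark the GATA matches, on either strand.
Il13, chr11:53634653-53634952, minus strand: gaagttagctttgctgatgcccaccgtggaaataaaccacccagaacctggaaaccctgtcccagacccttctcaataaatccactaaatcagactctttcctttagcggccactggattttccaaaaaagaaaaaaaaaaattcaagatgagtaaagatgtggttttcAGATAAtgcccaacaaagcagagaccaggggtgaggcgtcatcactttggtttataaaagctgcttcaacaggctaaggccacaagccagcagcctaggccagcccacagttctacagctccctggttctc
Il5, chr11:53720544-53720843, plus strand: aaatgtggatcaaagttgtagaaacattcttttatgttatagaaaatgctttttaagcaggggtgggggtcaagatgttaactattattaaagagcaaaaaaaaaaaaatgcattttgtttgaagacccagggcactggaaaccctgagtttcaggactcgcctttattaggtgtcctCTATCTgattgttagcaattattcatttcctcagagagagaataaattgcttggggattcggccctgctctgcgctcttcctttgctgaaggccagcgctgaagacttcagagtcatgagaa
Il4, chr11:53618616-53618915, minus strand: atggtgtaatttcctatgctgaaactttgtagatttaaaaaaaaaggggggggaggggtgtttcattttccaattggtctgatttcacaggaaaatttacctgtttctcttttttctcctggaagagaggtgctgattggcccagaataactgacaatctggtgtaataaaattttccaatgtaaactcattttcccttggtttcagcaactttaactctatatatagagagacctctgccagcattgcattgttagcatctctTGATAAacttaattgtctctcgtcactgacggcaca
Il1rl1, chr1:40429320-40429619, plus strand: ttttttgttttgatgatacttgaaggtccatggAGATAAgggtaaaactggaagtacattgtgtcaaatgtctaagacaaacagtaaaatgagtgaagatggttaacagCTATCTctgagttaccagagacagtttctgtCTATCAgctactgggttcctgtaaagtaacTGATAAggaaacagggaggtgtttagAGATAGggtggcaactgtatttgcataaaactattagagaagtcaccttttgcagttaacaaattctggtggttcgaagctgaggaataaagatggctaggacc
Ccr3, chr9:124021721-124022020, plus strand: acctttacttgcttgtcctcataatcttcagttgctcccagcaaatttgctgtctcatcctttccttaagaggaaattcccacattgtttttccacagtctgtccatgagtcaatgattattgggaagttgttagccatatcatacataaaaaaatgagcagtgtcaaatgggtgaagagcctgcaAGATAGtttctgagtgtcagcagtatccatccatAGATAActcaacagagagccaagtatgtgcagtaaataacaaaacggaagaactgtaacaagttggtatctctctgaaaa
Counted from the start site, the GATA match of Il13 began at -81 and that of Il5 at -72. The matches of Ccr3 began at -64 and -30, and the 5 matches of Il1rl1 at -217, -141, -110, -80 and -54.

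Among juveniles, most of the type 2 genes were higher after E. coli than after PBS. Transcripts of Il5, Il13, Ccr3, Ccr4, Ccr8 and Areg rose, the fitted changes running from 0.79 log2 units for Ccr4 to 3.31 for Areg, and 0 of the 10 genes fell in edgeR or DESeq2 (9.42% of all tested genes fell in edgeR), with 1 lower at an unadjusted p under 0.05, Gata3. Gata3, Il4, Il1rl1 and Il17rb did not pass the test. That is 6 of 10 genes called higher, where 15.4% of all tested genes were called higher and 24.8% in either direction (edgeR quasi-likelihood F test on all 12 libraries, Benjamini-Hochberg adjusted p under 0.05). The median change of the 10 genes was 1.40, against -0.012 for all tested genes. Il4 and Il5 passed the filter on low counts through the juvenile E. coli libraries, so they had to be high there. Without them 5 of 8 genes were called higher and the median was 0.92. In 7 of the 10 genes every juvenile E. coli library lay above every juvenile PBS library, as in 20.6% of all tested genes, and in Gata3 every one lay below, as in 16.3% of all tested genes. Il4, which had to be high in the juvenile E. coli libraries, was among these 7, and Il5 was not.

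In neonates the same infection left 0 of the 10 genes past the threshold in edgeR's test, where 1.19% of all tested genes were called. At an unadjusted p under 0.05, 3 of them were higher and 1 lower, where 7.46% of all tested genes were higher and 4.54% lower, and DESeq2 called 1, Ccr8, with an adjusted p of 0.0349. The median change of the 10 genes was 0.10, against -0.0027 for all tested genes. The change in juveniles minus that in neonates was called for Ccr4 and Areg, 2 of 10 genes, where 5.05% of all tested genes were called higher and 7% in either direction.

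**Figure D1:**
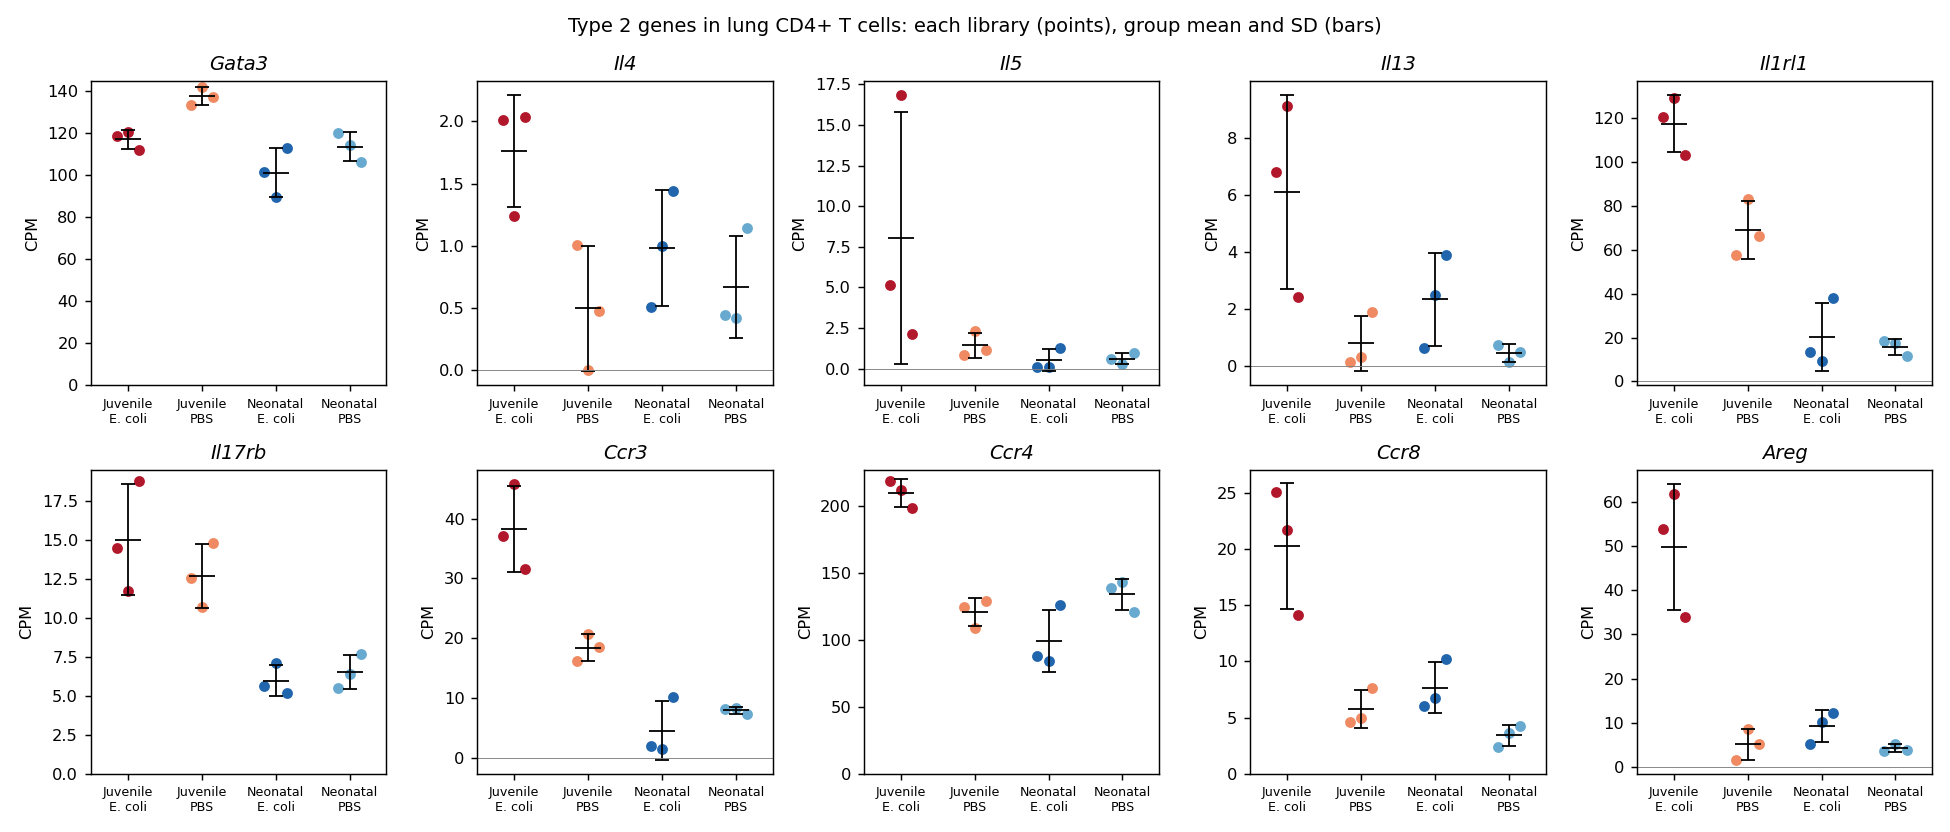
Level of each of the 10 genes in CPM (linear vertical axes that include 0, scaled per gene) in the 12 libraries, where points are libraries and bars give the group mean and SD, with juvenile E. coli, juvenile PBS, neonatal E. coli and neonatal PBS from left to right. Areg lies at 33.9 to 61.7 CPM in juvenile E. coli libraries and at 1.59 to 12.2 CPM in all others, while Gata3 stays within 89.4 to 142 CPM throughout.

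Gata3 (GRCm38 chromosome 2, 9857078 to 9890034, minus strand) encodes the transcription factor that directs Th2 differentiation and is also needed by developing T cells. Its level was 118, 121 and 112 CPM in juvenile E. coli libraries, 133, 142 and 137 CPM in juvenile PBS libraries, 101, 89.4 and 113 CPM in neonatal E. coli libraries and 120.2, 114 and 106 CPM in neonatal PBS libraries. Gata3 thus varied least of the members, and its juvenile PBS libraries were the highest. The change after E. coli was -0.23 ± 0.093 log2 units in juveniles (adjusted p = 0.0793), with a 95% interval of -0.43 to -0.036 and groups that did not overlap. Under upper-quartile scaling this change was -0.29 with an adjusted p of 0.0298, and so was called lower. In neonates the change was -0.17 ± 0.094 (adjusted p = 0.532). Juvenile PBS libraries were above neonatal PBS libraries by 0.28 ± 0.094 without overlap (adjusted p = 0.118). The gene overlaps annotated genes on both strands, Gm13256 and 4930412O13Rik on the other strand and 9230102O04Rik on its own, whose reads the counts may share.

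The 3 cytokine genes sit within about the same stretch of chromosome 11, at 53602982 to 53618669 for Il4, 53631324 to 53634702 for Il13 and 53720794 to 53725106 for Il5 (GRCm38), with Il4 and Il13 on the minus strand and Il5 on the plus strand. All 3 were rare transcripts, and few counts stand behind each value. A level of 10 counts or more was reached by Il4 in 2 juvenile E. coli libraries and 1 neonatal E. coli library, by Il5 in 3 juvenile E. coli libraries and 1 juvenile PBS library, and by Il13 in 3 juvenile E. coli libraries, 1 juvenile PBS library and 2 neonatal E. coli libraries. Outside the juvenile E. coli group, Il13 reached that level in 3 libraries, while Il4 and Il5 did so in 1 each. The other 7 members had 10 counts or more in all 12 libraries.

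Il13 encodes the cytokine that drives mucus production and airway hyperreactivity. It had 54, 66 and 19 counts in juvenile E. coli libraries, 1, 2 and 12 in juvenile PBS libraries, 5, 20 and 27 in neonatal E. coli libraries and 5, 1 and 3 in neonatal PBS libraries. Every juvenile E. coli library exceeded every juvenile PBS library, whereas the lowest neonatal E. coli library equalled the highest neonatal PBS library in counts. In CPM the means were 6.11 ± 3.40, 0.796 ± 0.972, 2.34 ± 1.63 and 0.457 ± 0.304 (SD, n = 3 each) in the same order of groups. Il13 rose in juveniles by 2.93 ± 0.75 log2 units (adjusted p = 0.0103). Without juvenile E. coli library 2 the change was 2.53 with an adjusted p of 0.0544, and without juvenile PBS library 3 it was 4.63 (adjusted p = 0.00355). The neonatal change was 2.32 ± 0.88 (adjusted p = 0.287), and the difference between the ages, 0.61 log2 units, was not called (adjusted p = 0.827).

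Il5 encodes the cytokine that matures and sustains eosinophils. Its counts were 41, 122 and 17 in juvenile E. coli libraries, 6, 14 and 7 in juvenile PBS libraries, 1, 1 and 9 in neonatal E. coli libraries and 4, 2 and 6 in neonatal PBS libraries. Juvenile E. coli library 2 held most of the Il5 counts of its group, and the lowest juvenile E. coli library, at 2.16 CPM, lay below the highest juvenile PBS library, at 2.31 CPM. Il5 rose in juveniles by 2.49 ± 0.72 log2 units (adjusted p = 0.0198), a call that ended without juvenile E. coli library 2 (1.36, adjusted p = 0.214), juvenile PBS library 1 (2.22, adjusted p = 0.0783) or juvenile PBS library 3 (2.36, adjusted p = 0.0616). In neonates the change was -0.29 ± 1.11 (adjusted p = 0.957), and the difference between the ages was 2.78 ± 1.37 (adjusted p = 0.248). Between the infected groups, Il5 was higher in juveniles by 3.98 ± 0.82 (adjusted p = 0.00320), or by 2.85 without juvenile E. coli library 2 (adjusted p = 0.0312) and 5.80 without neonatal E. coli library 3 (adjusted p = 0.00210). An antisense gene, Gm12214, overlaps Il5, and the counts may hold reads of both.

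Il4 encodes the cytokine that induces Th2 cells and class switching to IgE. It had 16, 9 and 16 counts in juvenile E. coli libraries, 7, 0 and 3 in juvenile PBS libraries, 4, 8 and 10 in neonatal E. coli libraries and 3, 3 and 7 in neonatal PBS libraries. The juvenile groups did not overlap and the neonatal groups did. The change was 1.75 ± 0.69 log2 units in juveniles (adjusted p = 0.0767) and 0.56 ± 0.71 in neonates (adjusted p = 0.850). Without juvenile PBS library 1 the juvenile change was 2.78 with an adjusted p of 0.0442, and so was called.

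Il1rl1 (chromosome 1, 40429570 to 40465415, plus strand) encodes ST2, the receptor of interleukin-33. Its level was 120.5, 129 and 103 CPM in juvenile E. coli libraries and 57.8, 83.4 and 66.2 CPM in juvenile PBS libraries, against 13.3, 9.47 and 38.3 CPM in neonatal E. coli libraries and 18.6, 17.4 and 11.8 CPM in neonatal PBS libraries. Every juvenile library lay above every neonatal library, and neonatal E. coli library 3 stood above the other neonatal libraries. Il1rl1 was higher in juveniles than in neonates by 2.11 ± 0.35 log2 units after PBS (adjusted p = 0.00383). After E. coli the difference was 2.55 ± 0.34 (adjusted p = 8.28e-05), or 3.37 without neonatal E. coli library 3 (adjusted p = 6.49e-07). The infection itself gave 0.77 ± 0.31 in juveniles without overlap of the groups (adjusted p = 0.0857, 95% interval 0.10 to 1.43) and 0.33 ± 0.37 in neonates (adjusted p = 0.824). Fitted on the 2 juvenile groups alone, the change was 0.76 with an adjusted p of 0.00658. The difference between the responses of the ages was 0.44 (adjusted p = 0.649), and 1.26 without neonatal E. coli library 3 (adjusted p = 0.0173).

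Il17rb (chromosome 14, 29996135 to 30008896, minus strand) encodes the receptor of interleukin-25. It was measured at 14.5, 11.7 and 18.8 CPM in juvenile E. coli libraries, 12.5, 10.7 and 14.8 CPM in juvenile PBS libraries, 5.62, 7.11 and 5.18 CPM in neonatal E. coli libraries and 5.502, 6.39 and 7.68 CPM in neonatal PBS libraries. The juvenile and neonatal libraries did not overlap, and within each age the infected and control libraries did. The gene was higher in juveniles by 0.96 ± 0.22 log2 units after PBS (adjusted p = 0.0231) and by 1.33 ± 0.22 after E. coli (adjusted p = 0.000524). The call after PBS ended without juvenile PBS library 1 (0.97, adjusted p = 0.0673), juvenile PBS library 3 (0.84, adjusted p = 0.0794), neonatal PBS library 1 (0.88, adjusted p = 0.107) or neonatal PBS library 2 (0.97, adjusted p = 0.0692). It also ended without both libraries high in Rag1 and Dntt (0.96, adjusted p = 0.0602) and with only the PBS groups in the fit (0.95, adjusted p = 0.0506). The change after E. coli was 0.24 ± 0.21 in juveniles (adjusted p = 0.425) and -0.12 ± 0.24 in neonates (adjusted p = 0.910). Il17rb overlaps Actr8 on the other strand. Actr8 averaged 23.8, 26.5, 22.4 and 25.7 CPM in juvenile E. coli, juvenile PBS, neonatal E. coli and neonatal PBS libraries and was called in none of the comparisons.

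Il1rl1 and Il17rb were the 2 members called higher in juvenile PBS than in neonatal PBS libraries, which is 2 of 10 genes, where 1.75% of all tested genes were called higher and 4.08% in either direction. Every juvenile PBS library exceeded every neonatal PBS library in 5 members, namely Gata3, Il1rl1, Il17rb, Ccr3 and Ccr8, and in 10.2% of all tested genes. The cytokine genes showed no such separation: Il5 differed by 1.20 ± 0.96 (adjusted p = 0.577), Il13 by 0.77 ± 1.04 (adjusted p = 0.769) and Il4 by -0.34 ± 0.81 log2 units (adjusted p = 0.876).

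Ccr4 (chromosome 9, 114490316 to 114504916, minus strand) encodes the receptor of the chemokines CCL17 and CCL22, carried by Th2 and regulatory T cells. Its level was 219, 212 and 199 CPM in juvenile E. coli libraries, 124, 109 and 129 CPM in juvenile PBS libraries, 87.7, 84.5 and 126 CPM in neonatal E. coli libraries and 139, 143 and 121 CPM in neonatal PBS libraries. The infected juvenile libraries stood above all others, and 2 of the 3 infected neonatal libraries stood below all others. Ccr4 rose in juveniles by 0.79 ± 0.13 log2 units (adjusted p = 0.000447), and the neonatal change was -0.44 ± 0.13 (adjusted p = 0.160). The difference between the responses was 1.23 ± 0.19 (adjusted p = 0.00166) and remained past the threshold under all 19 alternatives tried, from 1.09 to 1.44. Without neonatal E. coli library 3, the neonatal decrease was called (-0.64, adjusted p = 0.00837). Juvenile and neonatal PBS libraries differed by -0.15 ± 0.13 (adjusted p = 0.617), and juvenile E. coli libraries were above neonatal E. coli libraries by 1.08 ± 0.13 (adjusted p = 3.56e-05).

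Ccr8 (chromosome 9, 120092114 to 120094906, plus strand) encodes the receptor of CCL1 and, in mice, CCL8, and marks activated Th2 and tissue regulatory T cells. It was measured at 25.0, 21.7 and 14.1 CPM in juvenile E. coli libraries, 4.61, 4.94 and 7.65 CPM in juvenile PBS libraries, 6.00, 6.73 and 10.2 CPM in neonatal E. coli libraries and 2.38, 3.61 and 4.25 CPM in neonatal PBS libraries. Within each age, all infected libraries exceeded all control libraries, and Ccr8 was the 1 member for which this held in neonates (11.2% of all tested genes). Ccr8 rose in juveniles by 1.82 ± 0.28 log2 units (adjusted p = 0.000262). In neonates the change was 1.16 ± 0.32 (adjusted p = 0.110 by edgeR and 0.0349 by DESeq2). The difference between the ages, 0.66 log2 units, was not called (adjusted p = 0.397).

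Ccr3 (chromosome 9, 124021972 to 124031689, plus strand) encodes the eotaxin receptor of eosinophils, basophils and some Th2 cells. It stood at 37.1, 45.9 and 31.6 CPM in juvenile E. coli libraries, 16.1, 20.8 and 18.5 CPM in juvenile PBS libraries, 2.04, 1.496 and 10.2 CPM in neonatal E. coli libraries and 8.18, 8.33 and 7.35 CPM in neonatal PBS libraries. The juvenile groups did not overlap, and 2 of the 3 infected neonatal libraries were the lowest of all. Ccr3 rose in juveniles by 1.05 ± 0.35 log2 units (adjusted p = 0.0412), a call that did not hold in DESeq2 (adjusted p = 0.179), under upper-quartile scaling (adjusted p = 0.0502), or without juvenile E. coli library 1 (0.0970), juvenile E. coli library 2 (0.152), juvenile PBS library 1 (0.124) or juvenile PBS library 3 (0.0827), each as an adjusted p. The neonatal change was -0.84 ± 0.46 (adjusted p = 0.519), and without neonatal E. coli library 3 it was -2.16 (adjusted p = 0.00133). The difference between the responses was 1.89 ± 0.58 (adjusted p = 0.0624). It was called without neonatal E. coli library 3 (3.21, adjusted p = 0.000232), juvenile E. coli library 3 (2.01, adjusted p = 0.0498) or juvenile PBS library 2 (1.99, adjusted p = 0.0388), and with no filter on low counts (1.86, adjusted p = 0.0285). Between the infected groups, Ccr3 was higher in juveniles by 3.10 ± 0.41 (adjusted p = 7.65e-05), or by 4.42 without neonatal E. coli library 3 (adjusted p = 1.09e-07). After PBS it differed by 1.21 ± 0.40 without overlap (adjusted p = 0.110). That difference was called when only those groups entered the fit (1.20, adjusted p = 0.00805) and with no filter on low counts (1.24, adjusted p = 0.0449).

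Areg (chromosome 5, 91139599 to 91148432, plus strand) encodes amphiregulin, a ligand of the epidermal growth factor receptor that type 2 lymphocytes and tissue regulatory T cells release during repair. Its level was 53.8, 61.7 and 33.9 CPM in juvenile E. coli libraries, 1.59, 8.57 and 5.10 CPM in juvenile PBS libraries, 5.23, 10.1 and 12.2 CPM in neonatal E. coli libraries and 3.57, 5.28 and 3.76 CPM in neonatal PBS libraries. The 3 infected juvenile libraries stood above all others, and the infected neonatal libraries overlapped their controls. Areg had the largest change of the members in juveniles, 3.31 ± 0.39 log2 units (adjusted p = 2.64e-05), and 3.92 without juvenile PBS library 2, the control library high in Rag1 and Dntt. In neonates the change was 1.11 ± 0.43 (adjusted p = 0.305).

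The Areg response was larger in juveniles than in neonates by 2.20 ± 0.60 log2 units (adjusted p = 0.0388). DESeq2 gave an adjusted p of 0.0542 for it. Without juvenile PBS library 2 it was 2.81 (adjusted p = 0.00569), and without both PBS libraries high in Rag1 and Dntt 2.92 (adjusted p = 0.0132). The call ended when any of 9 of the 12 libraries was left out, the exceptions being juvenile E. coli library 3, juvenile PBS library 2 and neonatal E. coli library 3. The adjusted p was then 0.0891 without juvenile E. coli library 1, 0.0928 without library 2 of that group, 0.0611 without juvenile PBS library 1 and 0.0655 without juvenile PBS library 3. It was 0.0976 and 0.0691 without neonatal E. coli library 1 or 2, and 0.0795, 0.109 and 0.0753 without neonatal PBS library 1, 2 or 3, while the value itself stayed between 1.75 and 2.28 in these fits.

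**Figure D2:**
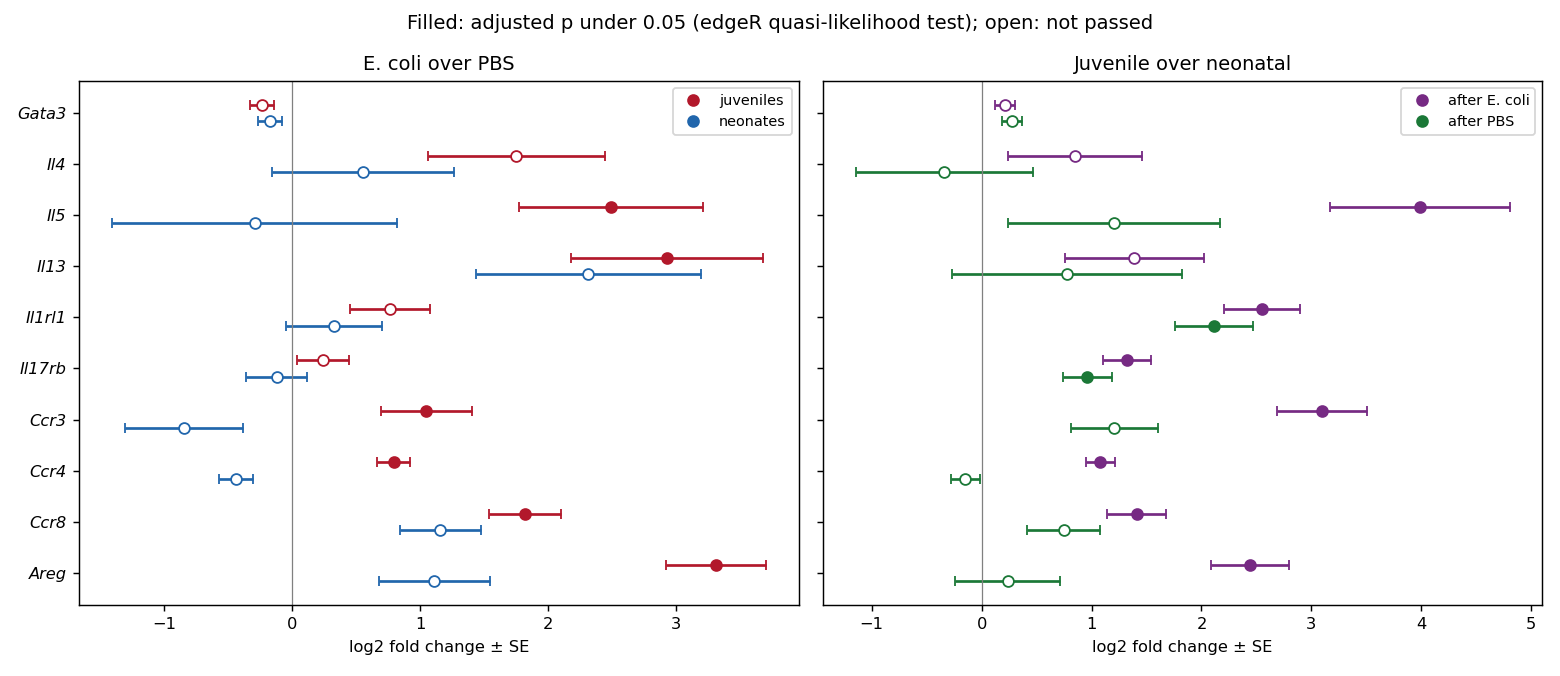
Log2 fold change ± SE (horizontal axes) of each of the 10 genes, with E. coli over PBS in juveniles and neonates on the left and juvenile over neonatal libraries after E. coli and after PBS on the right, and with filled points for an adjusted p under 0.05. On the left the juvenile points of Il5, Il13, Ccr3, Ccr4, Ccr8 and Areg are filled and positive and 0 neonatal points are filled, and on the right Il1rl1 and Il17rb are filled after both treatments.

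Set side by side after infection, juvenile libraries exceeded neonatal libraries in 7 of the 10 genes, Il5, Il1rl1, Il17rb, Ccr3, Ccr4, Ccr8 and Areg, where 11.3% of all tested genes were called higher and 17.8% in either direction. Without Il4 and Il5 they did so in 6 of 8 genes. The 7 genes remained called under each of the 14 alternatives run for that comparison. Ccr8 differed by 1.41 ± 0.27 log2 units (adjusted p = 0.00170) and Areg by 2.44 ± 0.35 (adjusted p = 0.000168). Il13 differed by 1.39 ± 0.63 (adjusted p = 0.150), and neither Il4 nor Gata3 was called. This comparison shares its libraries with those of E. coli against PBS, so their results are not independent.

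Neonatal E. coli library 3 differed from the other 2 libraries of its group in several members at once. It had 38.3 CPM of Il1rl1, 10.2 of Ccr3 and 126 of Ccr4, against at most 13.3, 2.04 and 87.7 CPM in the other 2. Foxp3 was also higher there, at 280.0 CPM against 191 and 189 CPM, and so was Klrg1, a receptor gene of differentiated effector and regulatory T cells, at 30.4 CPM against 9.45 and 9.97 CPM. The part of this library's cell make-up in the results was not tested, and they are given with and without it above.

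Compared per kilobase of exon, so that genes of different length can be set against each other, Ccr4 was the highest member in juvenile E. coli libraries at 67.9 ± 3.28 CPM per kilobase (SD, n = 3 for all values of this order). Areg followed at 41.0 ± 11.8, Gata3 at 29.4 ± 1.11, Ccr8 at 17.3 ± 4.76, Il1rl1 at 17.1 ± 1.90 and Ccr3 at 11.7 ± 2.19 CPM per kilobase. The lowest were Il5 at 5.24 ± 5.05, Il13 at 5.07 ± 2.82, Il17rb at 4.05 ± 0.962 and Il4 at 1.44 ± 0.367 CPM per kilobase. Areg and Gata3, Ccr8 and Il1rl1, and Il5, Il13 and Il17rb lay within their spread of each other. In neonatal PBS libraries Ccr4 and Gata3 led at 43.4 ± 3.77 and 28.6 ± 1.72 CPM per kilobase, and all other members were at 3.46 or below, Areg included.

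Several of the members are used by regulatory T cells as well, and the regulatory T cell genes moved with the groups. Foxp3 averaged 687 ± 187 CPM in juvenile E. coli libraries, 338 ± 47.8 in juvenile PBS libraries, 219.9 ± 52.1 in neonatal E. coli libraries and 309.7 ± 8.70 in neonatal PBS libraries (SD, n = 3 each). It rose in juveniles by 1.02 ± 0.18 log2 units (adjusted p = 0.000721), and the neonatal change was -0.50 ± 0.18 (adjusted p = 0.260). Of 20 regulatory T cell genes tested, 19 rose and 1, Gpr83, fell in juveniles, where 15.4% of all tested genes rose and 9.42% fell, and 0 were called in neonates by edgeR. At an unadjusted p under 0.05, 4 of them were higher and 4 lower in neonates, where 7.46% of all tested genes were higher and 4.54% lower, and DESeq2 called 1. Their summed level was 4362 to 6485 CPM in juvenile E. coli libraries, 2177 to 2643 in juvenile PBS libraries, 1681 to 2389 in neonatal E. coli libraries and 2202 to 2425 in neonatal PBS libraries. Their part in the changes of the type 2 genes was not tested.

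Counts of the members were therefore also set against the Foxp3 counts of the same library, a ratio that does not depend on scaling between libraries. Foxp3 overlaps annotated genes, Ppp1r3f, Ccdc22 and Gm36995 on the other strand and Flicr on its own, whose reads its counts may share. Ccr4 counts per 100 Foxp3 counts averaged 31.9 ± 7.54 in juvenile E. coli libraries, 36.4 ± 7.44 in juvenile PBS libraries, 45.2 ± 0.580 in neonatal E. coli libraries and 43.4 ± 3.64 in neonatal PBS libraries. The infected and control libraries overlapped at both ages. After E. coli the juvenile libraries lay below the neonatal libraries without overlap (-0.53 in log2 ratio), whereas in CPM Ccr4 was higher in juveniles. Il1rl1 per 100 Foxp3 was 17.8 ± 3.57, 20.3 ± 0.972, 8.55 ± 4.54 and 5.14 ± 1.21 in the same order of groups, so that the age groups separated and the juvenile infection groups overlapped. Il17rb per 100 Foxp3 was 2.38 ± 1.22, 3.83 ± 0.932, 2.85 ± 0.961 and 2.10 ± 0.343 in that order. For Il17rb the age groups separated after PBS, with juveniles higher, and overlapped after E. coli, with the juvenile mean lower.

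Areg and Ccr8 behaved differently in this ratio. Areg per 100 Foxp3 was 7.31 ± 1.42 in juvenile E. coli libraries, 1.43 ± 0.837 in juvenile PBS libraries, 4.15 ± 1.32 in neonatal E. coli libraries and 1.35 ± 0.263 in neonatal PBS libraries. Ccr8 per 100 Foxp3 was 2.95 ± 0.157, 1.71 ± 0.528, 3.45 ± 0.274 and 1.10 ± 0.295 in the same order. For both genes the infected libraries exceeded their controls without overlap at each age. Between the infected groups, juvenile libraries lay below neonatal libraries for Ccr8 (-0.23 in log2 ratio) and above them for Areg (0.84), without overlap for either. In CPM both genes were higher in infected juveniles. The log2 ratio of Areg differed by 2.53 in juveniles and 1.57 in neonates, and that of Ccr8 by 0.81 and 1.67 (exact two-sided permutation test, p = 0.10 for each). With 3 libraries against 3 the exact permutation test cannot give a p under 0.10. Of 28 such differences computed over 7 ratios, 16 reached that smallest p, for which the Benjamini-Hochberg adjusted value is 0.175.

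**Figure D3:**
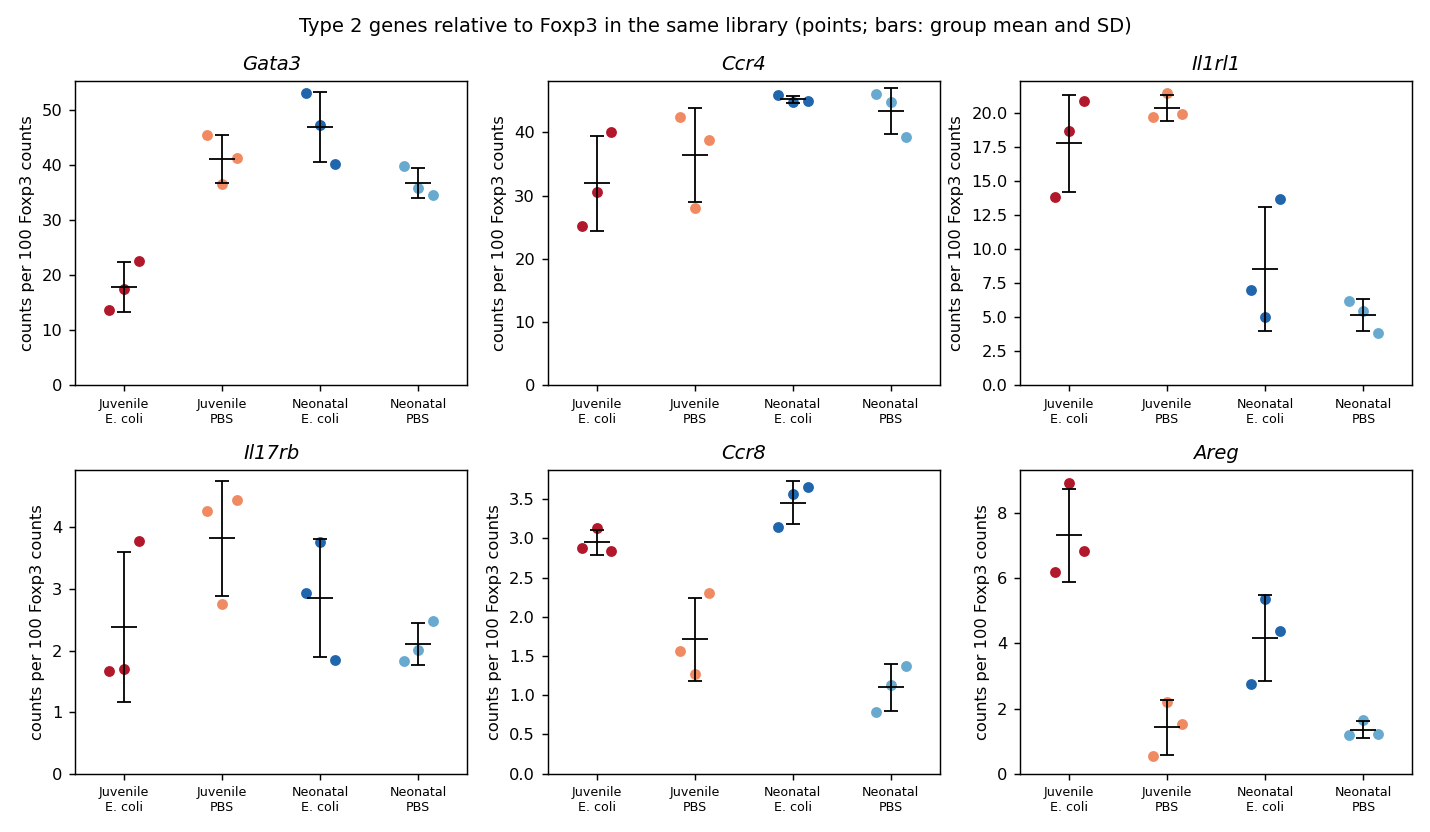
Counts of 6 of the genes per 100 Foxp3 counts of the same library (vertical axes), with a point per library and bars for the group mean and SD, for juvenile E. coli, juvenile PBS, neonatal E. coli and neonatal PBS libraries. Areg and Ccr8 lie higher in the infected libraries of both ages, Gata3 lies lowest in juvenile E. coli libraries, and Ccr4 overlaps between infected and control libraries.

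Gata3 per 100 Foxp3 counts was 17.9 ± 4.50 in juvenile E. coli libraries, 41.1 ± 4.43 in juvenile PBS libraries, 46.9 ± 6.41 in neonatal E. coli libraries and 36.7 ± 2.78 in neonatal PBS libraries. In this ratio the infected libraries lay below their controls in juveniles and above them in neonates, without overlap at either age. Against Tbx21, which encodes the Th1 factor T-bet that opposes GATA3, Gata3 showed the same order within juveniles. There were 579 ± 34.8 Gata3 counts per 100 Tbx21 counts in juvenile E. coli libraries, 2488 ± 464 in juvenile PBS libraries, 1883 ± 483 in neonatal E. coli libraries and 3680 ± 1402 in neonatal PBS libraries. The infected libraries lay below their controls without overlap at both ages (exact permutation p = 0.10 each). Tbx21 averaged 20.2 ± 0.764 CPM in juvenile E. coli libraries and 5.65 ± 0.970 in juvenile PBS libraries, and rose by 1.84 ± 0.22 log2 units (adjusted p = 3.32e-05). In neonates it averaged 5.55 ± 1.09 and 3.39 ± 1.21 CPM after E. coli and PBS (0.72 ± 0.26, adjusted p = 0.252). The Th1 cytokine gene Ifng rose in juveniles by 3.08 ± 0.28 (adjusted p = 3.04e-06), and the neonatal change was 0.48 ± 0.33 (adjusted p = 0.642). Il17a, the Th17 cytokine gene, had 61 counts in juvenile E. coli libraries and 32 in neonatal E. coli libraries, against 0 in the PBS libraries of either age.

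Of 35 further cytokine, Th2 and group 2 innate lymphoid cell genes, 28 could be tested, and in juveniles 16 rose, 1 fell and 11 did not pass the test, with a median change of 1.05. The cytokine gene Csf2, among the 16, passed the filter on low counts through the juvenile E. coli libraries, so it had to be high there. In neonates 5 rose and 23 did not pass. Over all tested genes, 15.4% rose and 9.42% fell in juveniles, and 1.05% rose in neonates. Maf, a transcription factor gene known to act on Il4, averaged 239 ± 28.6 CPM in juvenile E. coli libraries and 83.7 ± 7.36 CPM in juvenile PBS libraries, and rose by 1.51 ± 0.12 log2 units (adjusted p = 1.22e-06). Irf4, needed for Th2 and effector regulatory T cells, rose by 2.496 ± 0.21 in juveniles (adjusted p = 2.13e-06) and by 2.02 ± 0.21 in neonates (adjusted p = 0.000263). Rora, a factor gene of innate lymphoid, Th17 and regulatory T cells, rose by 1.07 ± 0.13 in juveniles (adjusted p = 2.46e-05). In neonates Batf rose by 1.06 ± 0.15 (adjusted p = 0.00300) and Arg1, an arginase gene that macrophages express too, by 1.45 ± 0.23 (adjusted p = 0.00508). Both genes also had higher means after E. coli in juveniles. There Batf averaged 32.8 ± 4.94 CPM against 14.6 ± 1.06 after PBS, and Arg1 31.5 ± 10.1 against 13.4 ± 1.96.

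Genes of the signals that set up type 2 differentiation were divided. Of 25 signalling genes, 9 rose, 4 fell and 12 did not pass the test in juveniles, and 2 rose and 23 did not pass in neonates. The shares of all tested genes were 15.4% higher and 9.42% lower in juveniles and 1.05% higher in neonates. Cish, a feedback inhibitor gene of STAT5 signals, rose by 1.76 ± 0.16 log2 units in juveniles (adjusted p = 3.28e-06) and by 1.11 ± 0.17 in neonates (adjusted p = 0.00362). Socs3, a feedback inhibitor gene of STAT3 signals, rose by 2.44 ± 0.23 (adjusted p = 3.46e-06) and by 2.38 ± 0.22 (adjusted p = 0.000222) at the same ages. Il18rap, part of the interleukin-18 receptor, rose by 1.34 ± 0.12 in juveniles (adjusted p = 3.04e-06). The interleukin-4 receptor gene Il4ra and Stat6, the core of the interleukin-4 signal, were not called: Il4ra gave -0.13 ± 0.13 (adjusted p = 0.530) and Stat6 -0.10 ± 0.098 (adjusted p = 0.513) in juveniles. Of 17 genes that restrain type 2 differentiation, 5 rose and 1 fell in juveniles, and 0 were called in neonates by edgeR or DESeq2, with 5 higher at an unadjusted p under 0.05, as were 7.46% of all tested genes. Besides Tbx21 these included Runx3, which rose by 0.56 ± 0.098 (adjusted p = 0.000801), and Ezh2, a histone methyltransferase gene, which rose by 0.67 ± 0.14 (adjusted p = 0.00305).

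The gene whose profile was most like that of a member was sought over the 12 libraries by Pearson correlation of log2 CPM among 9403 or 9404 candidate genes. These values describe likeness only, since the libraries share the group differences. Il1rl1 was closest to S100a4 (r = 0.962), Cass4 (0.956) and Klrg1 (0.951), and Ccr3 to Frmd5 (0.974), Klrg1 (0.971) and Ubash3b (0.962). Ccr4 was closest to Raph1 (0.965), Ikzf2 (0.955), which encodes the regulatory T cell factor Helios, and Dnase1l3 (0.940). Ccr8 was closest to Rbpj (0.977), Arhgap32 (0.970) and Nkg7 (0.967), and Areg to Cebpb (0.962), Arhgap32 (0.960) and Srgn (0.960). Il17rb was closest to H2-Ab1 (0.937), and Gata3 to BC032203 (0.923), the lowest first value of the 10. The first genes for the low-count cytokines were Myo1e for Il5 (0.951), Cfb for Il13 (0.957) and Slc12a2 for Il4 (0.958). Among the members themselves, the pairs Il1rl1 and Ccr3 (0.93) and Ccr8 and Areg (0.90) were alike.

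**Figure D4:**
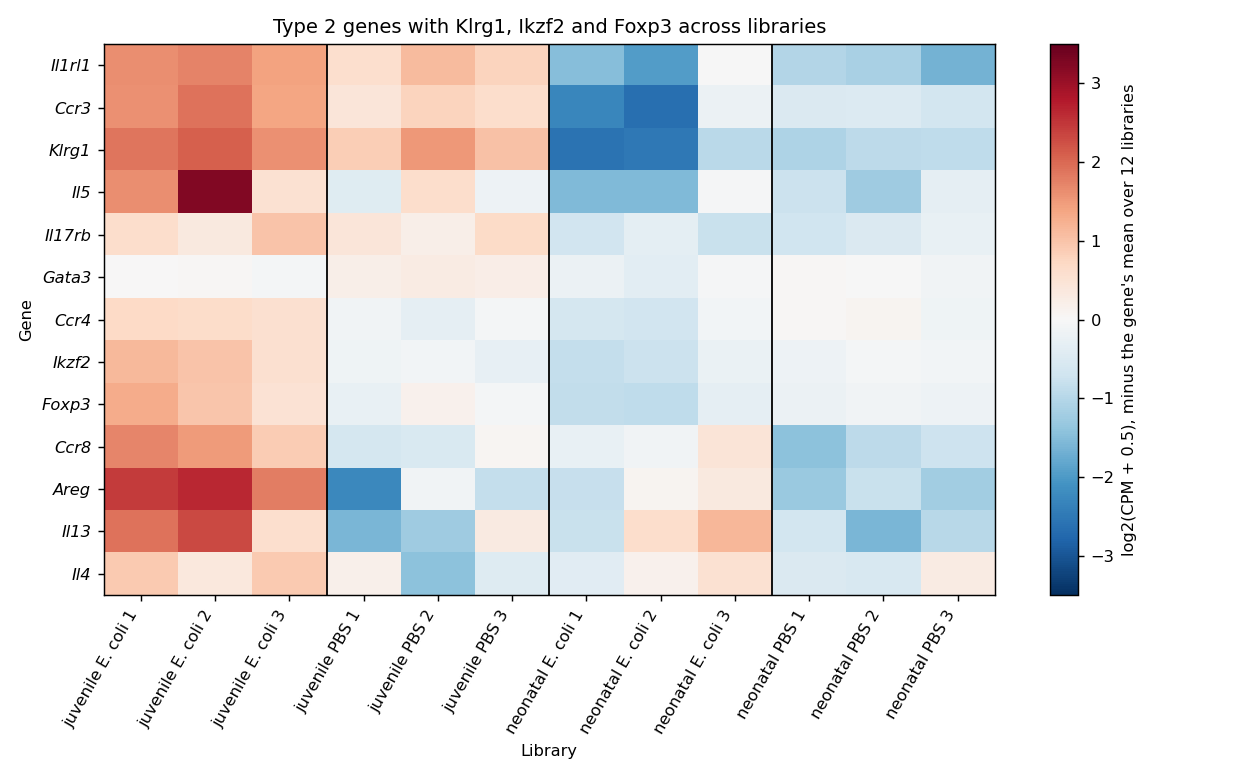
Log2(CPM + 0.5) of the 10 type 2 genes and of Klrg1, Ikzf2 and Foxp3 (rows) in the 12 libraries (columns), each gene minus its mean over the libraries (color, log2 units), with juvenile E. coli libraries leftmost and neonatal PBS libraries rightmost. Every gene shown except Gata3 is above its mean in all 3 juvenile E. coli libraries, Klrg1, Ikzf2 and Foxp3 included. Gata3 varies little, and neonatal E. coli library 3 is paler than the other 2 of its group for Il1rl1, Ccr3 and Klrg1.

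Other cells that express type 2 genes were sought through their markers. Of 19 genes of mast cells, basophils and eosinophils, 5 had 0 counts in all 12 libraries, among them the IgE receptor gene Ms4a2, the basophil protease genes Mcpt8 and Prss34 and the eosinophil granule gene Prg2. The summed level of the list was 18.9 to 38.1 CPM in juvenile E. coli libraries, 10.4 to 15.99 in juvenile PBS libraries, 40.6 to 52.0 in neonatal E. coli libraries and 19.9 to 39.5 in neonatal PBS libraries. Kit, which immature T cells may carry too, made up much of it, averaging 17.4, 6.47, 29.1 and 21.7 CPM in the same order. Of the 4 genes of this list that could be tested, Kit and Hdc, the histidine decarboxylase gene, rose in juveniles, by 1.44 ± 0.35 and 1.32 ± 0.37 log2 units (adjusted p = 0.00789 and 0.0178), and the median was 1.45. Of all tested genes, 15.4% rose in juveniles. Cpa3, a mast cell protease gene, had 37 counts over the juvenile E. coli libraries and 11 over the juvenile PBS libraries, and 79 over the neonatal E. coli libraries and 14 over the neonatal PBS libraries. It was not called in juveniles (1.47 ± 0.74, adjusted p = 0.162) or in neonates (2.28 ± 0.66, adjusted p = 0.139). Mcpt4 and Cma1, other mast cell protease genes, were below the filter. They had 15 and 9 counts over juvenile E. coli libraries and 2 and 1 over juvenile PBS libraries. In neonates they had 44 and 21 counts after E. coli and 0 and 3 after PBS. Cd200r3, Il5ra and Ear1 went the other way in juveniles, with 13, 10 and 1 counts after E. coli against 24, 15 and 10. Group 2 innate lymphoid cell genes, most of which T cells express as well, summed to 1497 to 1610 CPM in juvenile E. coli libraries, 1141 to 1165 in juvenile PBS libraries, 875 to 1071 in neonatal E. coli libraries and 912 to 983 in neonatal PBS libraries. Rora and Bcl11b made up much of this sum, averaging 605 and 554 CPM in juvenile E. coli libraries and 287 and 648 in juvenile PBS libraries. Of its 10 tested genes, 6 rose in juveniles and 2 in neonates, where 15.4% and 1.05% of all tested genes rose.

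Markers of myeloid and epithelial cells, which can express Areg and, for some, Il1rl1, also moved. The 14 monocyte, macrophage and dendritic cell genes summed to 871 to 1199 CPM in juvenile E. coli libraries, 339 to 508 in juvenile PBS libraries, 317 to 545 in neonatal E. coli libraries and 226 to 389 in neonatal PBS libraries. Ccr2, listed also as a receptor gene neighbour, alone averaged 404, 127, 93.0 and 85.1 CPM in the same order. Of the 14 genes, 10 rose and 1 fell in juveniles, and 1 rose in neonates. Over all tested genes, 15.4% rose and 9.42% fell in juveniles, and 1.05% rose in neonates. The 10 neutrophil genes summed to 10.9 to 26.8, 0.165 to 3.31, 10.98 to 60.96 and 0.694 to 1.93 CPM in the same order of groups. The 13 lung epithelial genes summed to 92.6 to 207, 36.3 to 44.4, 65.0 to 176 and 49.4 to 87.5 CPM. The part of these cells in the levels of the type 2 genes was not tested.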

How the data were processed

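RNA of 12 libraries of lung CD4+ T cells was measured, 1 library per pool of mice. Per the labels, CD4+ cells were bead-enriched and sorted, cDNA was made with an amplification kit, and libraries were sequenced as paired ends. Per the submitters' processing notes, CASAVA 1.8.4 and STAR were used with GRCm38 (mm10). The authors deposited whole-number counts per gene symbol, not normalized, in a table whose name credits SeqMonk; the sources used here give no version, strand setting or annotation for it. Reads of overlapping genes cannot be told apart.

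The members and gene lists were chosen with earlier results of these data known. All 263 list symbols that the table holds, of 264 written, were used, 2 through an older symbol. Genes were filtered with filterByExpr (minimum count 10, minimum total count 15), leaving 11062 genes with 99.9% of counts. edgeR 4.0.16 (R 4.3.3) fitted group means over 12 libraries with TMM scaling and no covariate, and genes with a Benjamini-Hochberg adjusted p under 0.05 were called. The common biological coefficient of variation was 0.123. Adjusted p-values in the text are edgeR's unless another tool is named. Log2 fold changes are ± SE, intervals are 95%, and levels are mean ± SD. Count ratios used a pseudocount of 0.5 and the likeness search 0.5 CPM, with a minimum average log2 CPM of 2. The fit was tested on simulated counts. Named genes were the members, up to 3 called genes of smallest p per list and contrast, Foxp3, Tbx21, Ifng, Il17a and the 3 genes most like each member; the remaining names (cell type markers, Il4ra, Stat6, Actr8, Gpr83) were chosen after their values were seen. No 2 libraries of a group were alike within counting error (chi-square per degree of freedom 4.00 to 20.7). Pools are separate samples per the labels, so p-values measure the spread between pools.

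The alternatives comprised DESeq2 1.42.0, scaling by RLE or by upper quartiles, other count filters, fits of the compared groups alone, a block on the replicate number and leaving out each library. Leaving out both PBS libraries high in Rag1 and Dntt was added after seeing the data. Positions are from GENCODE M21 (GRCm38) and promoters from RefSeq (GRCm38.p6). The DNA methylation data were not analysed here.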

Additional observations from a re-analysis of the deposited data

Results flagged for a closer look

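The response to E. coli differed between the ages, by the test of the difference itself, for 2 of the 10 genes. For Ccr4 the juvenile change exceeded the neonatal change by 1.23 ± 0.19 log2 units (edgeR, adjusted p = 0.00166), with all 3 juvenile E. coli libraries above all 3 juvenile PBS libraries and 2 of 3 neonatal E. coli libraries below all neonatal PBS libraries. For Areg the difference was 2.20 ± 0.60 log2 units (edgeR, adjusted p = 0.0388), and it lost its call when any of 9 of the 12 libraries was left out. Groups of 3 libraries were too small for a search for outlying values. Per 100 Foxp3 counts of the same library, Ccr4 did not separate infected from control libraries at either age, while Areg did at both.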

How the results depend on the processing

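Of 738 values of the type 2 genes under the alternatives, 686 kept their direction and their side of the threshold, 27 lost a call, 13 gained one, 12 moved without a call, and 0 turned round as calls. Leaving out each library in turn, the type 2 genes called numbered 3 to 6 for E. coli against PBS in juveniles, 0 to 2 in neonates, 1 to 4 for the difference of the responses, 1 to 2 for juvenile PBS against neonatal PBS and 7 to 7 for juvenile E. coli against neonatal E. coli. All genes called numbered 1656 to 3204, 55 to 126, 368 to 1553, 177 to 671 and 1108 to 2063 in the same order, against 2747, 132, 774, 451 and 1964 with all libraries. With only the groups compared in the fit, 320 genes were called in neonates and 280 between the PBS groups, and with DESeq2 238 and 729. DESeq2 called 1 type 2 gene in neonates and 1 for the difference of the responses, and without both PBS libraries high in Rag1 and Dntt 1 was called between the PBS groups. The causes were not tested.

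Deviations from the group means correlated at -0.217 to 0.221 between same-numbered libraries and at -0.273 to 0.235 between differently numbered ones. With 3 libraries per group such values cannot settle whether the numbers pair the libraries, and the main fit assumed no pairing. With the replicate block, 5, 0, 2, 2 and 7 type 2 genes were called in the same order, Ccr3 in juveniles losing its call (adjusted p = 0.0525). Upper-quartile scaling called 1468 genes higher and 1415 lower in juveniles, 50.9% higher, against 62.1% as reported. Low counts limit Il4, Il5 and Il13. The 95% intervals rest on the SE of the fit, which includes the spread between pools. The level of 3 counts per library is a fixed mark that carries no error.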

Other observations

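Lists of genes that lie near the type 2 genes on the chromosomes were counted in the same fits; the genes named from them here were chosen after their values were seen. Of 8 tested neighbours of the Th2 cytokine genes, 3 rose, 1 fell and 4 did not pass in juveniles, and 1 rose and 7 did not pass in neonates. Over all genes tested, 15.4% rose and 9.42% fell in juveniles, and 1.05% rose in neonates. Irf1, a transcription factor gene of interferon responses, rose by 1.53 ± 0.21 log2 units in juveniles (edgeR, adjusted p = 8.55e-05) and by 0.99 ± 0.20 in neonates (adjusted p = 0.0262). Csf2, which encodes the growth factor GM-CSF, had 71 counts over the juvenile E. coli libraries and 1 over the juvenile PBS libraries (called higher, adjusted p = 0.000123), and 29 over the neonatal E. coli libraries and 6 over neonatal PBS libraries (not called, adjusted p = 0.173). Csf2, counted among the 3 genes that rose, passed the filter on low counts through the juvenile E. coli libraries, so it had to be high there. Rad50, whose gene holds a control region of the Th2 cytokine genes, gave 0.22 ± 0.10 in juveniles (adjusted p = 0.133).

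Of 17 tested neighbours of the receptor genes, 12 rose and 1 fell in juveniles, and 4 rose in neonates. Of all tested genes, 15.4% rose and 9.42% fell in juveniles, and 1.05% rose in neonates. Cxcr6, a receptor gene of tissue T cells, rose in neonates by 1.05 ± 0.15 (adjusted p = 0.00310). Of 12 alarmin and type 2 chemokine genes, 6 could be tested, and 3 rose in juveniles and 1 in neonates, against the same shares. Among them Ccl8, whose product binds CCR8 in mice, had 209 counts in juvenile E. coli libraries and 14 in juvenile PBS libraries. It had 20 counts in neonatal E. coli libraries and 0 in neonatal PBS libraries. It was called higher in juveniles and in neonates (adjusted p = 8.19e-05 and 0.0319). Ccl8 and Ccl7, another chemokine gene, were both among the 3 that rose in juveniles. Both passed the filter on low counts through the juvenile E. coli libraries, so they had to be high there. The lowest Ccl8 level there was 6.23 CPM, against at most 1.15 CPM in neonatal E. coli libraries.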
